A study of Mus musculus with 2 samples.

Results

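The 38 genes described here are Hox genes, taken by symbol from a fixed list of 4 clusters: 10 genes of Hoxa on chromosome 6, 10 of Hoxb on chromosome 11, 9 of Hoxc on chromosome 15 and 9 of Hoxd on chromosome 2. They are 38 of 21539 protein-coding genes whose strand was known. The list was taken by symbol and not by a measured value, but it was chosen with earlier results of these data known. Each cluster was studied as a window, from the outermost ends of its listed genes to 100 kb beyond on each side, and the 4 windows cover 1285 kb. NANOG is a homeodomain transcription factor of pluripotent cells, and its binding was mapped by ChIP-seq (sequencing of DNA pulled down with an antibody). The cells were the line E14TG2a.4, embryonic stem cells from a male mouse of strain 129/Ola. There was 1 group of 2 biological replicates with 1 technical replicate each, labelled embryonic at an age of 3.5 days, with NANOG as the antibody and the same donor for both. No second condition, genotype or treatment was compared, so the questions were where NANOG summits lay around the Hox genes, and whether both replicates held them. Expression was not measured, and the labelled cell type was not checked against marker genes.

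Hox genes encode homeodomain transcription factors that give cells their position along the head-to-tail axis. Within a cluster they are transcribed in the same direction. Genes with low numbers lie at the 3' end and act early and toward the head, and genes with high numbers lie at the 5' end and act later and toward the tail. In embryonic stem cells most Hox genes are known to be kept silent by Polycomb group proteins, and retinoic acid switches on the 3' genes first.

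The sequences below show the DNA under the peak with the greatest enrichment in each cluster, with a further Hoxb peak and the Hoxb1 promoter, the promoter of the listed gene that lay closest to a summit. The first 5 are windows of equal length around the midpoint of a peak of the deposited series-level list on build mm9, plus strand. No exon or UTR record of the mm9 annotation touched any of the 5 windows. The sixth is the 238 bases before the start of Hoxb1 from RefSeq (build GRCm38.p6, which is mm10), plus strand, and holds an mm10 summit. Capitals mark every match to 11 short motifs, searched on both strands: TAATTA and TAATTG (homeodomain cores), TAATGG and CATTAG (NANOG), ATGCAAAT (OCT octamer), ACAAAG and ACAATG (SOX), AAGGTCA (nuclear receptor), GGGCGG (KLF/SP), TGACAG (MEIS) and TGATNNAT (PBX-HOX). The motif TAATGG and the reverse complement of CATTAG overlap in 5 letters.
Hoxd, 2.26 kb upstream of Hoxd12, chr2:74510625-74510825: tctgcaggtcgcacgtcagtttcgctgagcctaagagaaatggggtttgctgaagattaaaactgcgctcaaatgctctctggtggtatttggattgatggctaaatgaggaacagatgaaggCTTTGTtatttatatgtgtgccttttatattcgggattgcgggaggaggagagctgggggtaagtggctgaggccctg
Hoxb, 9.23 kb downstream of the Hoxb1 start, chr11:96236197-96236397: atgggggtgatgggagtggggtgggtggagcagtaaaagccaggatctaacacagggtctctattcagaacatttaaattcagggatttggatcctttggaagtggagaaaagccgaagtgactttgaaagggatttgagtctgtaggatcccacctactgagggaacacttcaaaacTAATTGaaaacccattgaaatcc
Hoxb, 3.97 kb upstream of Hoxb13, chr11:96051562-96051762: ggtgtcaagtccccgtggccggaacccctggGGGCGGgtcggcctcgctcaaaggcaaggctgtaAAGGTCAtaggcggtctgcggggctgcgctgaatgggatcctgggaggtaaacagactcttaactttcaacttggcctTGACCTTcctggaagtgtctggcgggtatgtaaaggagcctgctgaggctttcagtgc
Hoxa, beyond the 3' end of the cluster, chr6:52055197-52055397: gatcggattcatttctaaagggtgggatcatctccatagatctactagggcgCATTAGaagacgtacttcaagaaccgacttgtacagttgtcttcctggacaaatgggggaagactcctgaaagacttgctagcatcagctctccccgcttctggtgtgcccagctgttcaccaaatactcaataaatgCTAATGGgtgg
Hoxc, 48.1 kb upstream of Hoxc13, chr15:102703298-102703498: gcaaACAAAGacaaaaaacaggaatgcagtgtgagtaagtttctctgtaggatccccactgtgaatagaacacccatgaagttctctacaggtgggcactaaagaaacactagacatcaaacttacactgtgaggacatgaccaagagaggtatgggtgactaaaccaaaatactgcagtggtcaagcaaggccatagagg
Hoxb1 promoter, mm10, chr11:96365508-96365745: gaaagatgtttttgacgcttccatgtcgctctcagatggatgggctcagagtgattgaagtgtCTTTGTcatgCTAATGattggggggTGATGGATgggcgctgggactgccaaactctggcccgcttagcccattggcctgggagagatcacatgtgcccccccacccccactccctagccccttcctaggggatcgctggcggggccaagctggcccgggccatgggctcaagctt

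The Hoxd sequence held 1 match, to ACAAAG on the minus strand starting at position 23 from the midpoint. ACAAAG occurred in 4 of the 14 series-level peaks of the mm9 Hox windows, and in 37.2% of all 13341 windows of the same length. The Hoxb sequence near Hoxb13 held AAGGTCA starting at positions -35 and 43, on opposite strands. That motif was in 1 of 14 Hox peaks and 12.9% of all. The same sequence had GGGCGG, found in 3.71% of all. TAATTG was in 3 of 14 Hox peaks and 12.1% of all, TAATGG in 2 and 11.8%, CATTAG in 1 and 10.5%, ACAATG in 4 and 25.8%, and TGATNNAT in 1 and 8.55%. TAATTA (9.68% of all), TGACAG (12.6%) and the OCT octamer (4.17%) matched none of the 14 windows. In the Hoxb1 promoter, TGATGGAT, a match to TGATNNAT, spans positions -150 to -143 before the gene start, and the NANOG summit of the optimal set lies at -146, inside it. The summits of replicates 1 and 2 lay 16 bp and 22 bp from the optimal summit, so both were outside this match. This promoter is known for an element that HOXB1 binds together with PBX proteins. Whether the match is that element, and whether NANOG binds it, was not tested. CATTAG on the minus strand spans -165 to -160 and ACAAAG on the minus strand spans -175 to -170. Of all 27025 promoter stretches of this length, 7.68% held TGATNNAT, 6.27% CATTAG and 15.9% ACAAAG. Of the Hox genes, 22 had a promoter in the table, and 2, 2 and 5 of them held these motifs. Most of the 22 are Hoxa and Hoxd genes. From Hoxb there were only Hoxb1, Hoxb4 and Hoxb8, and from Hoxc only Hoxc4. The median GC content of the 22 promoters was 57.4% with 12 CpG dinucleotides, beside 52.1% and 5 over all promoters.

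NANOG summits were found around all 4 Hox clusters. Each peak of the authors' optimal set has a summit and a signal, the deposited value by which peaks are ranked here. The set was made from both replicates by a reproducibility procedure (irreproducible discovery rate, IDR) and holds 15891 peaks. Of these, 17 summits lay in the 4 windows, which is 1.32 per 100 kb (exact 95% Poisson interval 0.771 to 2.12), beside 0.586 per 100 kb over the assembled chromosomes. The windows held 6 summits at Hoxa (2.01 per 100 kb, 0.738 to 4.38), 7 at Hoxb (1.87, 0.753 to 3.86), 3 at Hoxc (0.950, 0.196 to 2.78) and 1 at Hoxd (0.337, 0.00853 to 1.88). The differences between clusters were not tested. Of the 17 summits, 5 lay between the outermost genes of a cluster, 3 of them at Hoxb, 1 at Hoxc and 1 at Hoxd. The bodies make up 37.7% of the windows and held 29.4% of the summits, at 1.03 per 100 kb beside 1.5 in the flanks. The body of Hoxa, 98.5 kb long, had 0, which allows a density of up to 3.75 per 100 kb. These intervals cover counting error only, and neighbouring summits are not independent.

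**Figure D1:**
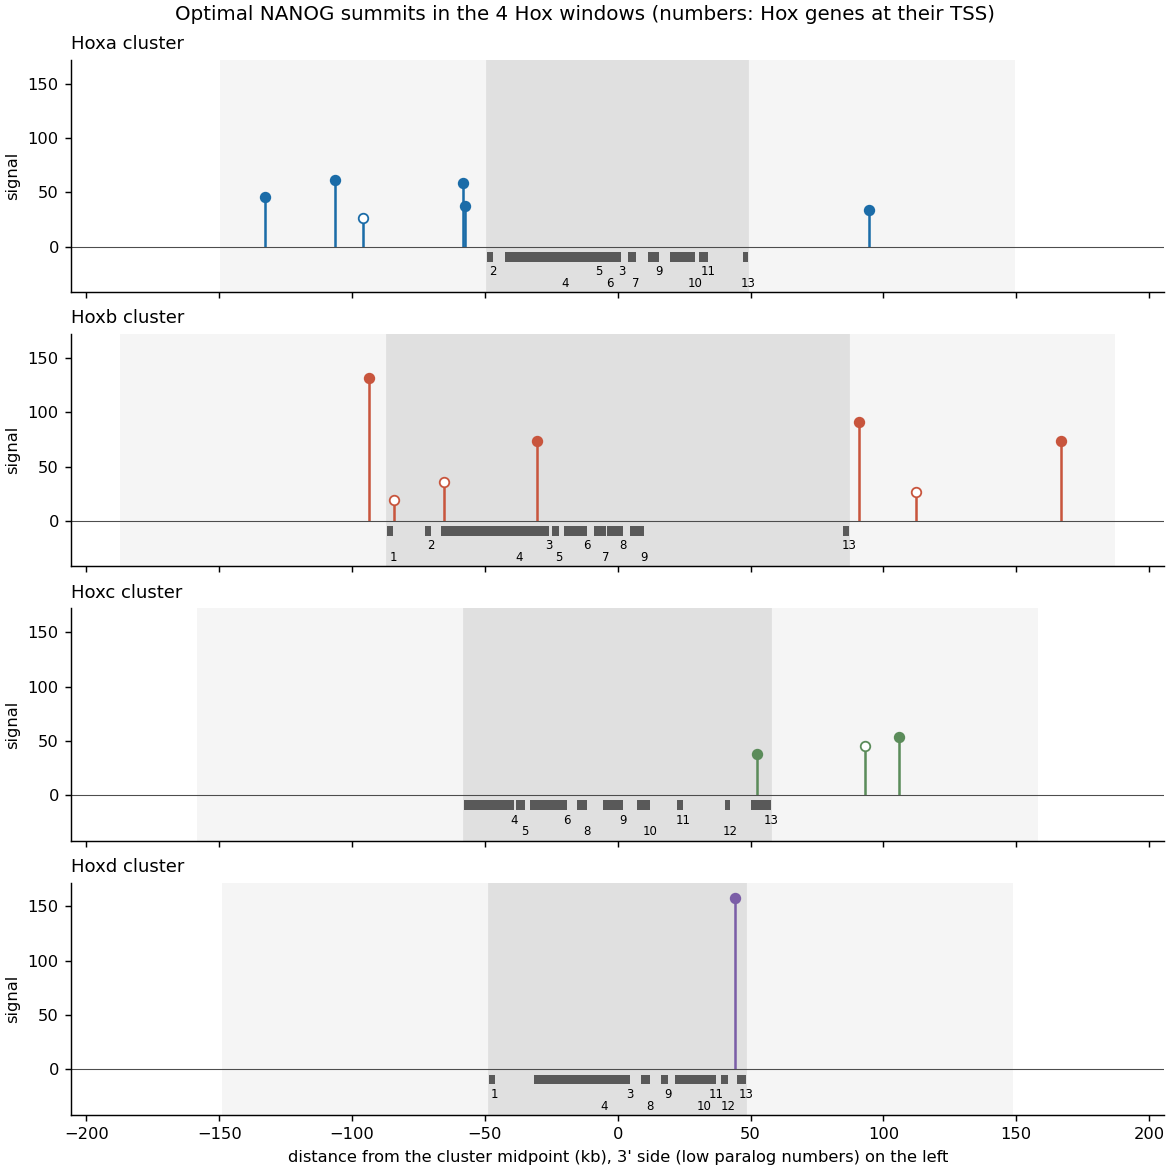
Signal of each optimal NANOG summit (vertical axis, the authors' unit) against its distance in kb from the midpoint of each Hox cluster (horizontal axis, 3' side on the left). Dark shading is the cluster body, light shading the flanks of 100 kb, grey bars the genes with their paralog numbers at the start sites, and filled circles are summits also in the conservative set; the single Hoxd summit is the highest at 158, and Hoxa has none in its body.

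The replicates were also counted on their own. Each replicate has a relaxed list of 300000 ranked regions, and its 15891 highest, as many as the optimal set holds, were taken as its top regions. Replicate 1 had 8, 7, 3 and 1 top summits in the Hoxa, Hoxb, Hoxc and Hoxd windows, and replicate 2 had 9, 6, 3 and 4. Equal counts were not always the same summits: at Hoxc, 1 of the 3 was a top summit of both replicates. The conservative set, the stricter of the authors' IDR sets with 9431 peaks, gave 6, 4, 2 and 1. At Hoxa its 6 were not all the optimal ones. They lacked the optimal summit 46.6 kb beyond the 3' end and had an additional one at 57.1 kb. Over the genome both sets of top regions have 0.587 and 0.586 summits per 100 kb, and the smaller conservative set has 0.348. The whole relaxed lists, which include weak background regions, were also denser in these windows than over the genome, with 21.6 summits per 100 kb in replicate 1 and 20.5 in replicate 2 beside 11.1 in each over all chromosomes. The part of this general density in the counts of strong summits was not tested.

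**Figure D2:**
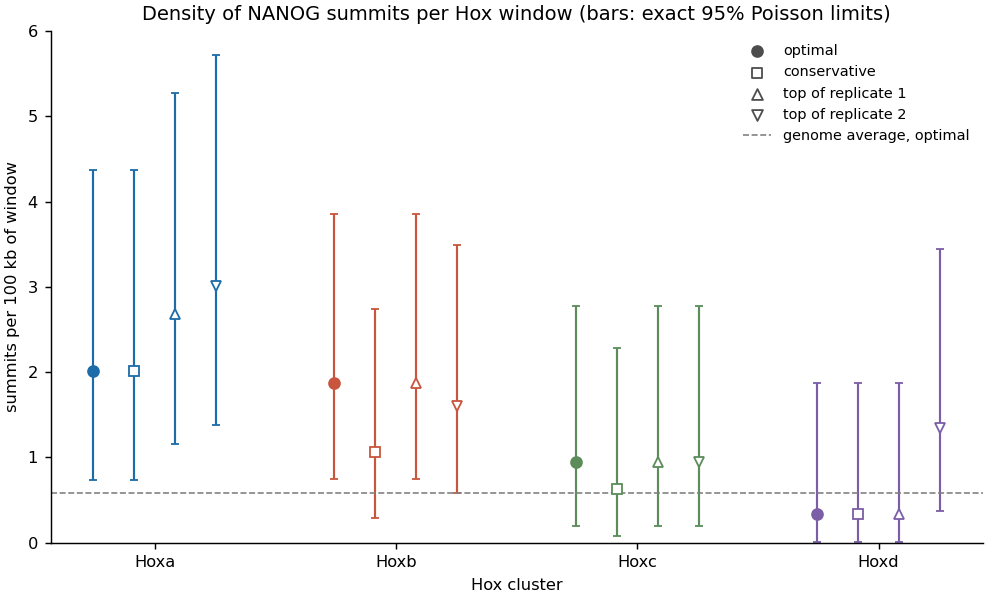
NANOG summits per 100 kb of window (vertical axis) for the 4 Hox clusters (horizontal axis) in the optimal set, the conservative set and the top regions of each replicate; bars are exact 95% Poisson limits and the dashed line is the genome average of the optimal set, 0.586. Hoxa has 2.01 in the optimal set, and Hoxd moves from 0.337 to 1.35 with the top regions of replicate 2. The genome average of the conservative set, 0.348, is not drawn.

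Of the 17 optimal summits, 12 were in the conservative set (70.6%, beside 56.7% of the optimal set). Top regions of replicate 1 overlapped 15 of them (88.2%, beside 86.3%), those of replicate 2 overlapped 10 (58.8%, beside 54.6%), and both overlapped 9 (52.9%, beside 50.4%). These shares were near those of the whole set. The relaxed list of replicate 1 held all 17, and the relaxed list of replicate 2 held 16. The rank was better in replicate 1 for 9 of the 17 and in replicate 2 for 7. Summits of replicate 1 lay a median of 7 bp from the optimal summit, with a maximum of 74 bp, and those of replicate 2 a median of 22 bp, with a maximum of 206 bp. The authors' regions were 364 bp wide for 13 of the 17, the commonest width of the set (78.0%), so most widths do not tell these peaks apart. Each replicate also had top summits in the windows with no optimal peak under them, 3 of 19 in replicate 1 and 12 of 22 in replicate 2. Of the 22 in replicate 2, 7 were not in the relaxed list of replicate 1, and of the 19 in replicate 1, 4 were not in that list of replicate 2. The extra summits of replicate 2 were spread over all 4 windows.

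**Figure D3:**
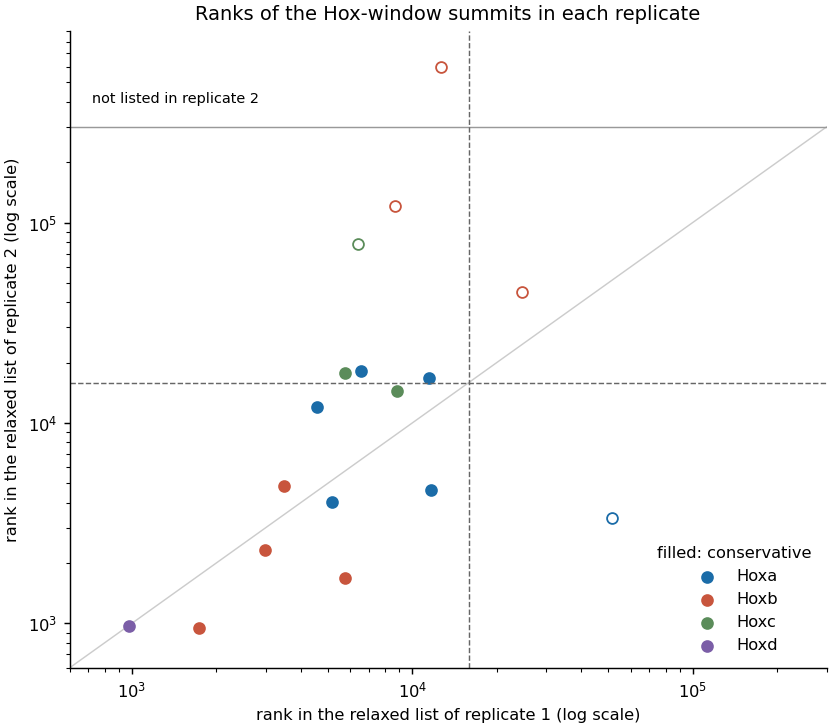
Rank of each of the 17 Hox-window summits in the relaxed list of replicate 1 (horizontal, log scale) and replicate 2 (vertical, log scale); a low rank is a strong region, dashed lines mark rank 15891 and the point above the solid line is not listed in replicate 2. The Hoxd summit sits at 979 and 974, and 9 points lie inside both dashed lines.

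The Hoxd cluster had 1 optimal summit, and it was the strongest of all 17. It lay at chr2:74672554-74672799, outside any gene body, between Hoxd13 and Hoxd12, with signal 158 and rank 960 of 15891. Its rank was 979 in replicate 1 (signal 118) and 974 in replicate 2 (signal 39.9), so both replicates placed it almost alike; signals are not comparable between lists. The summit was 2.33 kb upstream of the start of Hoxd12 and 4.46 kb downstream of that of Hoxd13, which is known for digit and urogenital development. Hoxd11, which patterns the forearm, started 6.88 kb from it. It was also 11.2 kb upstream of Evx2, the even-skipped-related gene just beyond the cluster, which is transcribed in the opposite direction. This summit alone lay within 50 kb of 8 of the 9 Hoxd starts. The exception was Hoxd1, at the 3' end, at 90.3 kb. With the top regions of replicate 2 alone, Hoxd had 3 more summits, each with no optimal peak: in Hoxd3 (rank 8016), 2.61 kb upstream of Hoxd1 inside the noncoding gene Haglr (rank 9998), and 40.2 kb downstream of the Hoxd1 start (rank 8203). In replicate 1 the summit in Hoxd3 had rank 80090, and the other two were not listed. The Hoxd count therefore went from 1 to 4 without replicate 1.

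The Hoxb cluster had 7 summits, spread over both ends and its 3' part. Its strongest (chr11:96374912-96375157, outside any gene) lay 9.30 kb downstream of the start of Hoxb1, the hindbrain gene at the 3' end of the cluster. This summit had signal 132 and rank 1378, with rank 1735 in replicate 1 (signal 88.8) and 951 in replicate 2 (signal 40.4). At the opposite end a summit of signal 90.8 and rank 2593 (chr11:96190350-96190524) lay 3.89 kb upstream of Hoxb13, a tail and prostate gene that stands far from the rest of the cluster. It ranked 2995 and 2318 in the replicates. A summit of signal 73.3 and rank 3609 (chr11:96311678-96312041) lay within the annotated span of Hoxb3, 4.76 kb after its outermost start. It was also 6.41 kb upstream of Hoxb4, 8.35 kb downstream of the start of Hoxb5, and within 50 kb of 8 Hox starts. Its ranks were 3491 and 4856. All 3 summits were in the conservative set and among the top regions of both replicates, and their positions differed between replicates by no more than 37 bp from the optimal summit.

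The remaining Hoxb summits were weaker or farther away. A summit of signal 35.8 (chr11:96346619-96346982) lay 4.83 kb upstream of Hoxb2, inside the long forms of Hoxb3 and of its antisense gene Hoxb3os. It ranked 8677 in replicate 1 and 121489 in replicate 2, and was not in the conservative set. The Hoxb1 promoter summit (chr11:96365418-96365781), whose sequence is printed above, had signal 19.6 and rank 14848, near the end of the optimal set. It ranked 24521 in replicate 1 (signal 12.5) and 44938 in replicate 2 (signal 7.25), among the top regions of neither, and was absent from the conservative set. A summit 25.3 kb upstream of Hoxb13 (signal 26.5) ranked 12678 in replicate 1 and was not listed in replicate 2. The most distant lay 80.1 kb upstream of Hoxb13 inside Calcoco2, which encodes an autophagy receptor. It had signal 73.3, ranked 5764 and 1677 in the replicates, and lay 10.2 kb upstream of Ttll6, the gene of a tubulin-modifying enzyme. Without the 3 summits that are absent from the conservative set, Hoxb had 4.

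All 6 Hoxa summits lay outside the span from Hoxa2 to Hoxa13, 5 of them beyond the 3' end. The strongest (chr6:52105048-52105204, signal 61.1, rank 4645) lay 57.3 kb beyond the last listed gene, inside the long noncoding RNA gene Halr1. It ranked 5164 in replicate 1 and 4025 in replicate 2. A pair of summits lay 8.91 kb and 8.24 kb beyond the 3' end, or 11.3 kb and 10.7 kb from the start of Hoxa2, a gene of the hindbrain and the branchial arches. The former (chr6:52153323-52153686) had signal 58.8, with rank 4560 in replicate 1 and 11999 in replicate 2. The latter (chr6:52153994-52154357) had signal 37.7, with ranks of 11617 and 4615, so the replicates ordered the pair in opposite ways. A summit 83.6 kb out (signal 46.2) ranked 6577 and 18181. A summit 46.6 kb out (signal 26.1) was the only one of the 17 that was a top region of replicate 2 alone, with rank 3348 there and 51534 in replicate 1, and it was not in the conservative set. At the 5' end, 1 summit of signal 33.5 (chr6:52306147-52306510) lay 45.4 kb upstream of Hoxa13 and 7.17 kb upstream of Evx1, the even-skipped-related neighbour. It ranked 11512 and 16824. In replicate 1 a top summit (rank 13708) lay 3.68 kb downstream of the start of Hoxa13, a gene of the limb and the urogenital tract, with no match in the relaxed list of replicate 2. Replicate 2 had 3 top summits in the 5' flank that no optimal peak covered. The first lay 10.4 kb upstream of Hoxa13 (rank 4035), and the others lay inside Evx1 (ranks 10147 and 5734). In replicate 1 these 3 ranked 200410, 22416 and 29783.

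The 3 Hoxc summits all lay at the 5' end, around Hoxc13, a gene of hair and nails. The summit in Hoxc13 itself, 5.42 kb after its start (chr15:102926372-102926735, signal 37.5, rank 8622), ranked 8834 in replicate 1 and 14374 in replicate 2. A summit 35.1 kb upstream of Hoxc13 (signal 44.8) ranked 6420 and 77824, and was not in the conservative set. A summit 48.2 kb upstream (chr15:102872787-102873150, signal 53.0) ranked 5766 and 17766. All 3 were top regions of replicate 1 and only the summit in Hoxc13 was one of replicate 2. Replicate 2 had 2 other top summits in the cluster, 1 inside Hoxc4 (rank 6513) and 1 at 5.35 kb upstream of Hoxc12 (rank 14943). Neither was in the relaxed list of replicate 1.

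Over the 4 windows, 9 of 17 optimal summits lay on the 3' side of the cluster midpoint, 52.9% (exact Clopper-Pearson 95% interval 27.8 to 77.0). The share was 47.4% of 19 top summits in replicate 1 and 59.1% of 22 in replicate 2. By cluster, 5 of 6 lay on the 3' side at Hoxa (83.3%, 35.9 to 99.6), 4 of 7 at Hoxb (57.1%, 18.4 to 90.1), with 0 of 3 at Hoxc (up to 70.8%) and 0 of 1 at Hoxd. With 1 to 7 summits a cluster, differences between clusters were not tested. By position in the cluster, the 5 summits in the bodies were split into 3 on the 3' side, all at Hoxb, and 2 on the 5' side.

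Around the 38 start sites themselves, 25 genes had an optimal summit within 50 kb (65.8%, 48.6 to 80.4), beside 44.8% of all 21539 protein-coding genes. These were 3 of 10 Hoxa, 10 of 10 Hoxb, 4 of 9 Hoxc and 8 of 9 Hoxd genes. The 25 genes share 14 summits, so they are not 25 separate observations. The interval treats the 38 genes as independent and does not account for this sharing. Within 10 kb, 10 genes had a summit (26.3%, beside 14.5%), from 7 summits: Hoxb1, Hoxb2, Hoxb3, Hoxb4, Hoxb5, Hoxb13, Hoxc13, Hoxd11, Hoxd12 and Hoxd13. Within 100 kb, all 38 had one, beside 65.8%. Only 2 genes, Hoxb3 and Hoxc13, held a summit in their annotated span (5.26%, beside 18.2%), and Hox genes are short, with a median length of 3.72 kb against 17.3 kb over all genes. With the top regions of replicate 1 the count within 50 kb was 31 (81.6%, beside 45%) and with those of replicate 2 it was 34 (89.5%, beside 50.3%). The conservative set also gave 25, beside 30.5%.

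**Figure D4:**
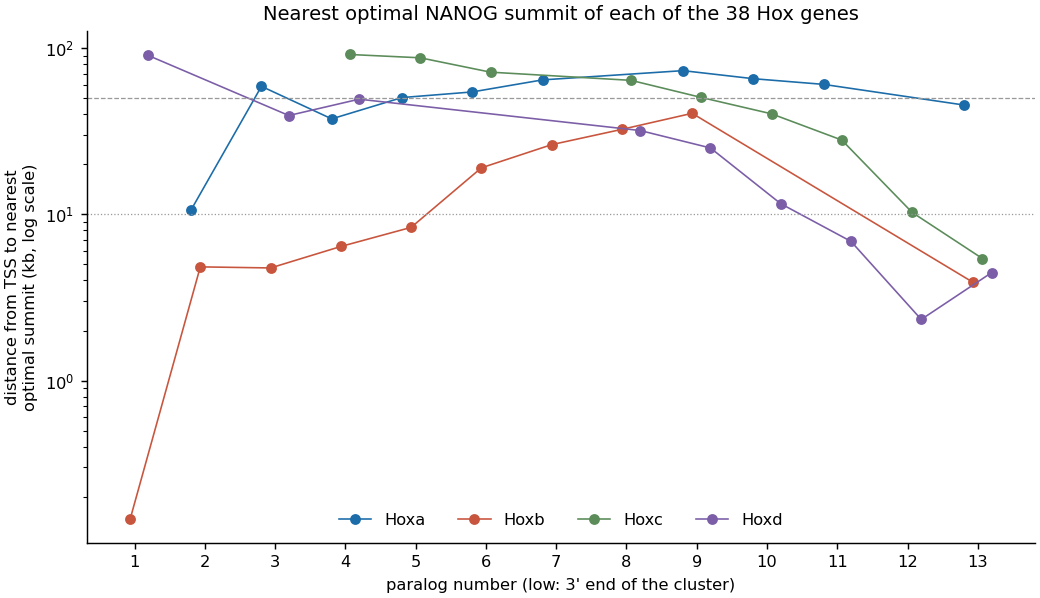
Distance in kb (log scale, vertical) from the start of each of the 38 Hox genes to its nearest optimal summit, by paralog number (horizontal), with lines joining genes of a cluster. Dashed and dotted lines mark 50 kb and 10 kb; Hoxb genes lie between 0.146 and 40.5 kb, and Hoxa genes between 10.7 and 73.2 kb.

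Distances to the nearest summit ran from 0.146 kb at Hoxb1 to 91.5 kb at Hoxc4, with a median of 35.0 kb. The median was 7.38 kb at Hoxb, 25.1 kb at Hoxd, 50.5 kb at Hoxc and 56.7 kb at Hoxa. Hoxb6, Hoxb7, Hoxb8 and Hoxb9 had the summit in the span of Hoxb3 as their nearest, at 19.0 to 40.5 kb. Hoxd8, Hoxd9 and Hoxd10, at 31.9, 25.1 and 11.6 kb, shared the Hoxd summit with Hoxd3 (39.3 kb) and Hoxd4 (49.3 kb). Hoxc4, Hoxc5, Hoxc6, Hoxc8, Hoxc9, Hoxc10, Hoxc11 and Hoxc12 all had the Hoxc13 summit as their nearest, at 10.3 to 91.5 kb. Among Hoxa genes, Hoxa2, Hoxa3, Hoxa4, Hoxa5, Hoxa6, Hoxa7 and Hoxa9 had the same 3' flank summit as nearest, at 10.7 to 73.2 kb, and Hoxa10, Hoxa11 and Hoxa13 the 5' flank summit, at 45.4 to 65.5 kb.

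Strong NANOG regions were rare at start sites, both of Hox genes and of genes in general. Within 1 kb of the start, 0 of 38 genes had a top region in replicate 1 (beside 2.69% of all genes) or in replicate 2 (beside 2.51%). Among the 50000 highest regions, 5 genes had one in replicate 1 (13.2%, beside 12.5%): Hoxa10 at rank 21139, Hoxd11 at 23425, Hoxb1 at 24521, Hoxa4 at 39517 and Hoxb3 at 43554. In replicate 2 there were 2 (5.26%, beside 7.44%), Hoxa2 at rank 18446 and Hoxb1 at 44938. Hoxb1 was the only Hox gene with such a region in both replicates (2.63%, beside 2.66%). The others differed between replicates: Hoxa10 ranked 81604 in replicate 2, Hoxb3 ranked 168874, and Hoxa4 and Hoxd11 had no listed region there, while Hoxa2 ranked 94268 in replicate 1. In the whole relaxed lists, 19 genes had a region in replicate 1 (50%, beside 47.1%) and 18 in replicate 2 (47.4%, beside 32.9%). In both lists there were 9 (23.7%), and the share of all genes with a region in both was not counted. Fewer Hox genes than genes in general had no region in either list, 10 of 38 (26.3%, beside 39.7%), and this difference was not tested. The 10 were Hoxa9, Hoxa13, Hoxb2, Hoxb4, Hoxb5, Hoxb6, Hoxb7, Hoxb13, Hoxc12 and Hoxd1. The start used here is the outermost annotated one, and Hoxa3, Hoxb3 and Hoxd3 have long forms that reach past neighbouring genes.

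**Figure D5:**
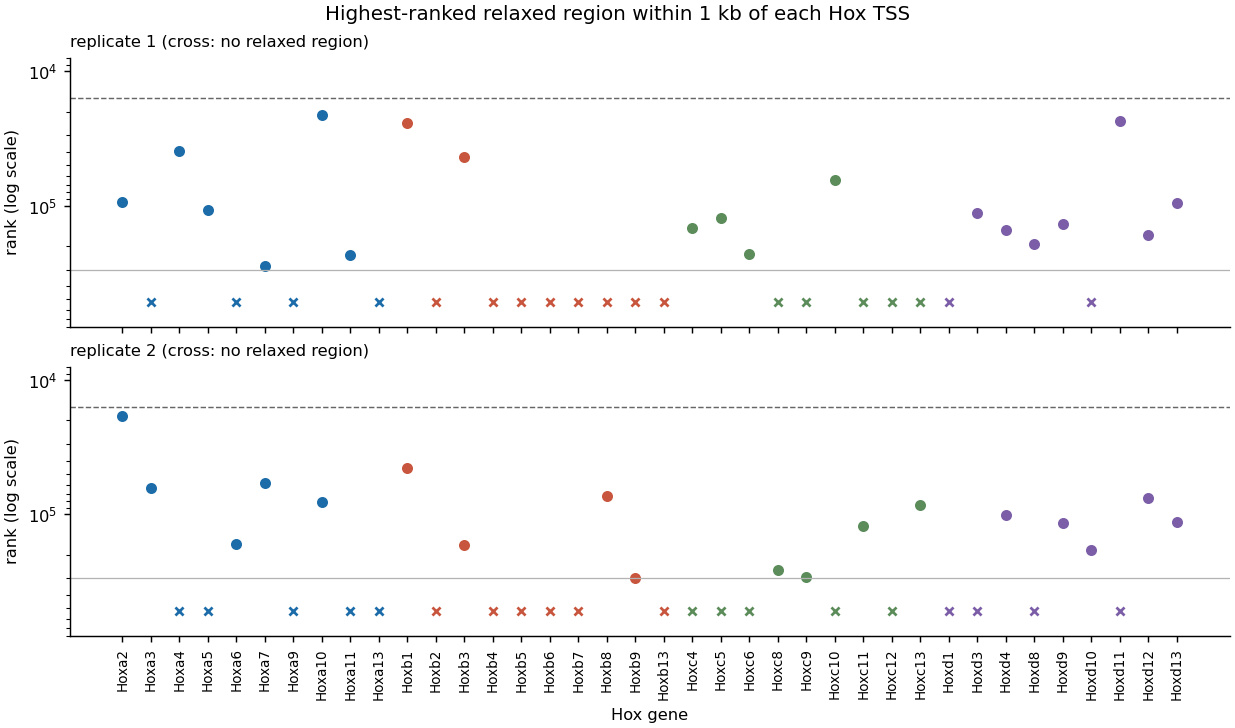
Rank (log scale, inverted so that strong regions are high) of the best relaxed region within 1 kb of each Hox start, for replicate 1 (upper panel) and replicate 2 (lower panel); crosses are genes with no listed region. The dashed line is rank 15891 and the solid line the end of the list at 300000; no gene lies above the dashed line, and 19 and 18 genes have a listed region.

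On mm9, peaks were described by their distance to the same genes. The series-level list, of 13341 peaks, had 6 peaks at Hoxa, 4 at Hoxb, 3 at Hoxc and 1 at Hoxd. Replicate 1 had 11, 8, 3 and 2 and replicate 2 had 5, 4, 0 and 1. Their lists differ in length, with 22082 peaks in replicate 1 and 6618 in replicate 2. These counts were not scaled to list length, so they do not compare the replicates at the Hox clusters. The Hoxd peak (chr2:74510266-74511183) had the highest enrichment of the 14, at 18.96, and 38.05 in replicate 1 and 16.72 in replicate 2. The peak 9.23 kb downstream of the Hoxb1 start had 14.77 at series level, 28.62 in replicate 1 and 14.81 in replicate 2. The Hoxb13 peak had 12.25, 23.09 and 9.07. A Hoxb peak 4.80 kb upstream of Hoxb4 had 9.9, 19.84 and 7.16, and lay outside any gene in the mm9 annotation, in which Hoxb3 is shorter. The highest at Hoxa was 9.9, inside the gene model Gm15055, with 19.52 and 10.51 in the replicates. At Hoxc the highest was 6.88, with 13.99 in replicate 1 and none in replicate 2. A peak 0.1 kb upstream of Hoxb1 was in the list of replicate 1 only, with enrichment 6.83 and a q-value of 0.2252. No coordinate was compared between the builds.

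Genes that work with the Hox genes or control them were counted in the same way. Of 9 genes for TALE homeodomain proteins, the PBX, MEIS and PKNOX partners of HOX proteins, 6 had an optimal summit within 50 kb, with the highest signals at Pbx3 (149, 27.7 kb upstream), Pknox2 (87.1), Pbx2 (42.1) and Meis2 (36.7). Of 11 genes beside the clusters or in the related ParaHox and neighbour families, 10 had one. Cdx4, a caudal-type gene that controls Hox genes in the tail, had the highest at 236 (9.49 kb upstream), followed by the forebrain gene Gsx2 at 181 (9.76 kb downstream of its start), Evx2 at 158, which is the Hoxd summit, and Gbx1 at 118. Of 20 regulators of Hox expression, 14 had one, led by Kat6a, a histone acetyltransferase gene, at 206 (41.8 kb downstream of its start), then the Polycomb genes Eed (89.4) and Bmi1 (75.5) and the retinoid receptor gene Rxra (53.5). In all 30 of 40 genes had a summit (75%, beside the 44.8% over all genes). Some of these genes share summits, so they are not 30 separate observations. Pdx1 and Cdx2 have the same highest summit (40.2), and that of Evx1 (33.5) is the Hoxa summit in the 5' flank. With top regions, the counts were 7, 9 and 13 in replicate 1 and 6, 9 and 13 in replicate 2.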

How the data were processed

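Peak lists of 2 NANOG ChIP-seq replicates of 1 group were analysed. Per the descriptions deposited with the files, the mm10 lists are narrow-peak tables and the mm9 lists broad-peak tables. Each region of the deposited mm10 lists has a signal, a summit and a −log10 q-value. For mm9, the deposited values are a fold enrichment (a ratio), a −log10 p-value and an untransformed q-value. The aligner and peak caller are not given in the sources used here, nor is the IDR cutoff or the read depth, and a possible control experiment named in the labels was not used here. Values are the authors' own and served only to rank and describe regions within a list.

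The members and gene lists were chosen with earlier results of these data known. Text names every listed gene within 10 kb of an optimal summit or with one in its body, the genes holding or nearest to a window summit, and up to 4 genes per list. Start sites are the 5' ends in a GRCm38.p6 RefSeq gene table, with strands for 21539 of 21887 protein-coding genes (98.4%). Distances are to the nearest of the 38 genes, and other genes may be nearer. The mm9 genome and annotation served the mm9 sequences. Support was an overlap of at least 1 bp. A top set is the 15891 regions of highest signal in a replicate. Counts have exact 95% Poisson and shares exact Clopper-Pearson intervals, and with 1 group no p-value was computed. The counting code was tested on simulated data. The software was Python 3.11.15 with pandas 2.3.3, NumPy 2.4.6, matplotlib 3.10.9 and SciPy 1.17.1. The alternatives changed the peak set, replicate, flank, distance, side and support rules.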

Additional observations from a re-analysis of the deposited data

How the results depend on the processing

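There were 53 alternatives over 7 results. In 42 the count stayed within 1.5 times the reported count, or the share within its 95% interval, and in 11 the count moved further. Counts within that range still ran from 4 to 9 at Hoxa, 2 to 4 at Hoxc, and 25 to 34 for genes with a summit within 50 kb. Counts were compared without scaling to window length or list size, so a change of setting alone can move them. With no flank the windows held 0 optimal summits at Hoxa, 3 at Hoxb and 1 at Hoxc. The densities per 100 kb were then 0 at Hoxa, 1.72 at Hoxb, 0.864 at Hoxc and 1.03 at Hoxd. With flanks of 100 kb they were 2.01, 1.87, 0.950 and 0.337. Hoxb had 4 with the conservative set and 4 peaks in the mm9 series-level list, and Hoxd had 3 with a flank of 200 kb. The number of Hox genes with a summit was 10 within 10 kb, 38 within 100 kb and 2 for a summit inside the gene body. With the whole relaxed lists, both replicates supported 16 of the 17 summits, beside 9 with top regions. Using the top regions of 1 replicate at a time, that is without the other, gave 8 to 9 summits at Hoxa, 6 to 7 at Hoxb, 3 to 3 at Hoxc and 1 to 4 at Hoxd, a 3' share of 47.4% to 59.1%, and 31 to 34 genes with a summit within 50 kb. The 4 at Hoxd came without replicate 1. No paired analysis was possible because the design has 1 group and no second condition. Read depth was not given, so precision rests on the number of summits alone.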
